A study of Mus musculus with 6 samples.

Results

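The genes described here encode the protein subunits of the cytosolic ribosome in mouse lung. They were taken from the deposited table by symbol: Rpl or Rps followed by a number and at most a short suffix, the stalk genes Rplp0 to Rplp2, and Rpsa. Symbols that mark a processed copy ("-ps" and a number) were left out. The rule found 84 of the 24054 rows, 51 of the large and 33 of the small subunit. Fau and Rpl36al, which the rule does not match, were not counted as members.

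The cytosolic ribosome reads messenger RNA on its small subunit and joins amino acids on its large subunit. Its protein genes are expressed in nearly every cell, and most of their messenger RNAs start with a pyrimidine tract, the 5′ TOP motif. Through that tract the kinase complex mTORC1, which the Tsc1-Tsc2 complex restrains, controls how strongly these messages are translated, with Larp1 as a binding protein of the tract. Such control acts on translation, and the RNA levels below do not measure it.

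Lungs of 6 female SCID mice, which lack mature B and T cells, were compared by bulk RNA-seq. Every mouse first received labelled extracellular vesicles (EVs) positive for CD9, CD63 and CD81 through the tail vein, made by cultured neural progenitors of E15.5 mouse embryos. Rat ELT3 cells, a model of lymphangioleiomyomatosis, followed 48 h later by vein, and the lungs were taken after another 72 h. In 3 mice the vesicles came from Tsc1-null progenitors (Tsc1-null EV lungs), and in 3 mice from wild-type progenitors (WT EV lungs). The Tsc1 loss lies in the cells that gave the vesicles, so Tsc1 RNA in the lungs does not check the labels; it stood at 17.2, 17.9 and 18.7 in Tsc1-null EV lungs and at 17.8, 33.2 and 22.2 in WT EV lungs. The labels give no mice without vesicles or without rat cells, and rat reads could not be separated here.

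Many ribosomal protein messages have near-identical processed copies elsewhere in the genome, and the deposited table lists some of these copies at a higher level than the gene itself. The coding sequences of 3 such members are shown beside that copy. Each line gives 60 coding bases (GENCODE M21, GRCm38, transcribed strand), and the capital marks the single base at which the pair differs in that stretch. The stretches are coding bases 147 to 206 for Rpl26, 66 to 125 for Rpl30 and 102 to 161 for Rpl34. The genes lie at chr11:68901583-68906989 (plus strand, Rpl26), chr15:34440505-34443640 (minus strand, Rpl30) and chr3:130726831-130730398 (minus strand, Rpl34). The copies lie at chr5:3236431-3236868 (plus strand, Gm15772), chr11:49678710-49679057 (minus strand, Gm12191) and chr6:71124610-71124963 (plus strand, Rpl34-ps1), and all 3 are annotated as processed pseudogenes.
Rpl26: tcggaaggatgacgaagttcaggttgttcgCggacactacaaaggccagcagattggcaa
Gm15772: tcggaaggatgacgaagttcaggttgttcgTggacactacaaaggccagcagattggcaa
Rpl30: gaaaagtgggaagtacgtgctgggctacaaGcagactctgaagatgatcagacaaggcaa
Gm12191: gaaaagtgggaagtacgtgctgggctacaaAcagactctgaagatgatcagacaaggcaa
Rpl34: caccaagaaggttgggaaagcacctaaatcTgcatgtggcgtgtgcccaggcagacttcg
Rpl34-ps1: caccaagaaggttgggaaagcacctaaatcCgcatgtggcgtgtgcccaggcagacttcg
Over the whole coding sequence Rpl26 and Gm15772 differ at 2 of 435 bases (99.5% identity), Rpl30 and Gm12191 at 1 of 345 (99.7%), and Rpl34 and Rpl34-ps1 at 2 of 351 (99.4%).

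Pyrimidine tracts were searched at the annotated start sites of the messages, and part of the members had one. Each line below gives 30 bases of RefSeq sequence (GRCm38.p6), 15 before and 15 from the annotated start, on the transcribed strand. Capitals mark a tract of a C followed by at least 7 bases that are each C or T. The genes were picked to show the longest tracts of the large subunit, clear examples of the small subunit, the S6 kinase substrate Rps6, and Rpl19 and Rpl12, whose levels are described below. The windows are Rpl27a at chr7:109519180-109519209 (plus), Rpl7a at chr2:26910792-26910821 (plus), Rpl35 at chr2:39005117-39005146 (minus), Rps10 at chr17:27635230-27635259 (minus), Rps18 at chr17:33955651-33955680 (minus), Rps6 at chr4:86857353-86857382 (minus), Rpl19 at chr11:98026909-98026938 (plus) and Rpl12 at chr2:32961697-32961726 (plus).
Rpl27a: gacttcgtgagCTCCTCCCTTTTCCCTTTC
Rpl7a: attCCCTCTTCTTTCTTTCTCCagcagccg
Rpl35: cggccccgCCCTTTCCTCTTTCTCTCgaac
Rps10: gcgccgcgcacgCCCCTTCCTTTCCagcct
Rps18: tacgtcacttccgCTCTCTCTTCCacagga
Rps6: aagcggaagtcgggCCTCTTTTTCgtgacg
Rpl19: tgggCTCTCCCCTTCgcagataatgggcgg
Rpl12: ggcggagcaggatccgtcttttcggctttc
In the Rpl12 window no tract of that length was found, nor in the window of a second annotated Rpl19 start at chr11:98026695-98026724, which is not printed. RefSeq promoters were matched for 63 of the 84 members, 75 promoters in all. A tract of this kind, searched in the 60 bases around the start, was on the transcribed strand of 36 promoters (48.0%), against 5967 of all 32851 promoters in the table (18.2%). On the other strand it was in 8 member promoters (10.7%), against 6852 of all promoters (20.9%). A match of letters is not a mapped start site, and no count here was tested.

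The libraries held 5101413 to 9358820 reads in genes, of which 202856 to 428475 fell on members. The values are the authors' TMM-normalized levels, close to CPM and not scaled by gene length, and their totals lay between 964931 and 1022663 per library. Lung identity was read from 7 markers, Sftpc, Sftpb, Scgb1a1 and Ager with the less specific Pecam1, Cdh5 and Col1a2. They summed to 95107 to 111562 in Tsc1-null EV lungs and 72048 to 95915 in WT EV lungs. Tsc1-null EV library 1 and WT EV library 2 stood apart. Their median correlation with the other libraries was 0.942 and 0.963, against 0.980 to 0.982 for the rest, and Malat1, a nuclear noncoding RNA, stood at 30060 and 15673 in them, against 1609 to 2819 in the rest. The markers of blood and immune cells, of which 4 of 8 passed the filter on low values, summed to 3332, 6969 and 6727 in Tsc1-null EV lungs and to 8525, 6326 and 7703 in WT EV lungs. Hbb-bs was listed at 0 in all 6 libraries, and the T cell marker Cd3e and the B cell markers Cd79a and Ms4a1 were under 1 in each. The 6 markers of heart, fat and mesothelium summed to 82.2, 419 and 509 in Tsc1-null EV lungs. In WT EV lungs they summed to 556, 929 and 597. The groups did not overlap in this sum, which was lowest and highest in the same 2 libraries. All 6 markers were lower in Tsc1-null EV lungs in the limma fit described below, with a median log2 fold change of −1.03, and 0 were called. Hba-a1, a haemoglobin chain of red cells, stood at 1779, 2675 and 3547 in Tsc1-null EV lungs and at 5642, 4077 and 5582 in WT EV lungs, with no overlap. Of all genes that passed the filter, 6.22% were lower in this way. Whether cell makeup or RNA quality sets the member levels was not tested.

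Summed over members, and with all libraries, ribosomal protein RNA differed between the groups by less than the libraries of a group differed among themselves. The sum was 40666, 46201 and 43664 in Tsc1-null EV lungs and 41101, 50746 and 43080 in WT EV lungs. The mean was 43510 ± 2771 in Tsc1-null EV lungs and 44976 ± 5094 in WT EV lungs (SD, n = 3 each). The difference in means (Tsc1-null EV minus WT EV) was −1465 with all libraries, 1419.6 without WT EV library 2 and 2842 without both libraries that stood apart. Library 2 of the WT EV group was the highest of all and library 1 of the Tsc1-null EV group the lowest, and with all libraries the groups overlapped. Without those libraries, both remaining Tsc1-null EV sums lay above both remaining WT EV sums. As a share of all summed values members held 3.98%, 4.58% and 4.35% in Tsc1-null EV lungs and 4.10%, 5.26% and 4.32% in WT EV lungs. On average they made up 4.30% ± 0.304 of the summed level of a Tsc1-null EV lung and 4.56% ± 0.616 of a WT EV lung (SD, n = 3 each). In bulk tissue, fewer cells of a kind and less RNA per cell cannot be told apart.

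With all libraries, the ratio of the subunits differed between the groups by less than the replicate spread. The large subunit sum divided by the small subunit sum was 1.303, 1.295 and 1.311 in Tsc1-null EV lungs and 1.327, 1.231 and 1.333 in WT EV lungs. The mean was 1.303 ± 0.00793 in Tsc1-null EV lungs and 1.297 ± 0.0574 in WT EV lungs (SD, n = 3 each). The difference (Tsc1-null EV minus WT EV) was 0.00608 with all libraries, −0.027 without WT EV library 2 and also −0.027 without both libraries that stood apart. Without WT EV library 2, the ratio of every Tsc1-null EV lung lay below that of both remaining WT EV lungs. WT EV library 2 had the lowest ratio, and the other 5 lay between 1.295 and 1.333. In that library the small subunit stood further above its mean over all libraries than the large subunit did, with a median log2 deviation of 0.22 for small and 0.13 for large subunit members.

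**Figure D1:**
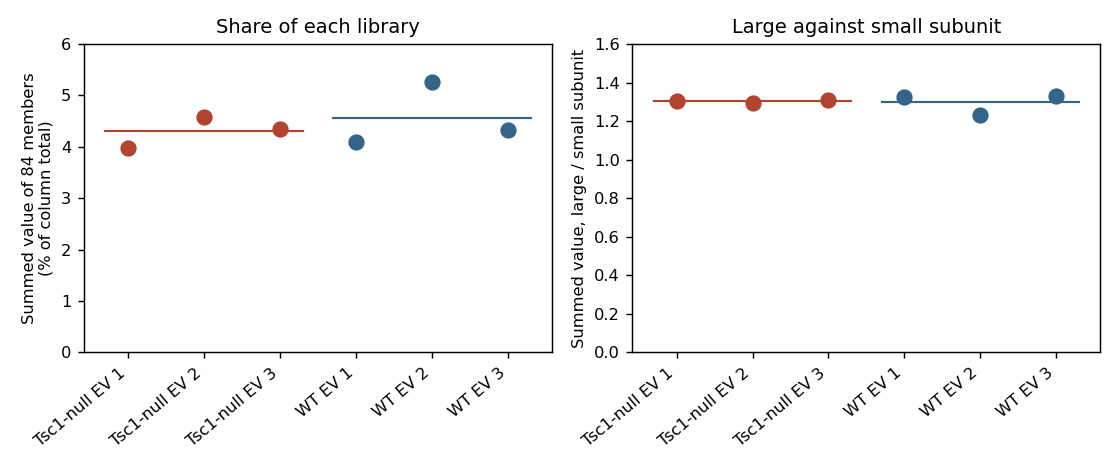
Left, summed value of the 84 members as a percent of each library's total; right, the large subunit sum divided by the small subunit sum, with Tsc1-null EV lungs (red) left of WT EV lungs (blue). Points are libraries and lines are group means (n = 3); the highest share, 5.26%, and the lowest ratio, 1.231, belong to WT EV library 2.

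Members moved together from library to library, and on this scale the groups overlapped. The median deviation of a tested member from its own mean over the 6 libraries was −0.15, 0.09 and 0.02 (log2) in Tsc1-null EV libraries 1 to 3, and −0.10, 0.17 and −0.01 in WT EV libraries 1 to 3. In Tsc1-null EV lungs 14, 63 and 42 of the 81 tested members lay above their own mean, and in WT EV lungs 19, 69 and 39 did. WT EV library 2 held the highest value of 41 members, and Tsc1-null EV library 1 the lowest value of 36. The 2 libraries that stood apart thus lay at opposite ends for these genes, and each group held a library with low and a library with high levels.

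**Figure D2:**
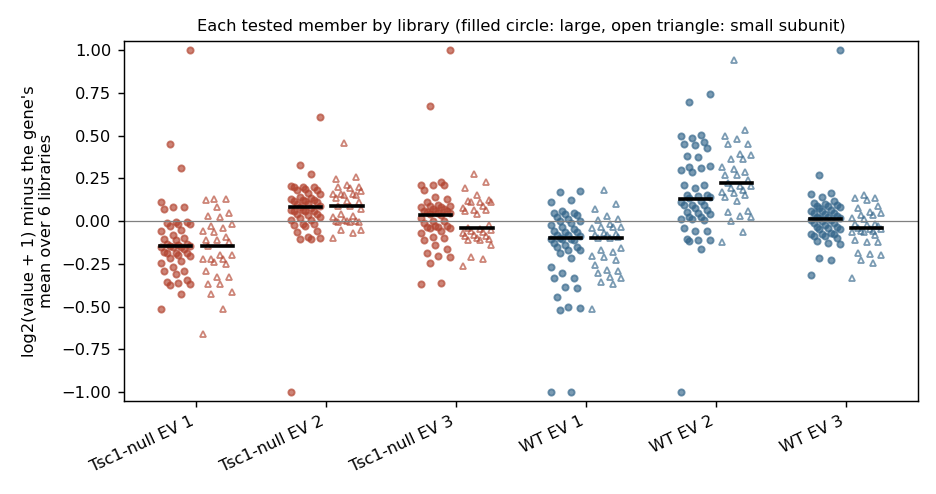
Deviation of each tested member from its own mean over the 6 libraries (log2, values beyond 1 drawn at the edge), by library, Tsc1-null EV (red) left and WT EV (blue) right; black lines are the medians of large (filled circles) and small (open triangles) subunit members. The medians are lowest in Tsc1-null EV library 1, at −0.15 for both subunits, and highest in WT EV library 2, at 0.13 for the large and 0.22 for the small subunit.

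No ribosomal protein gene passed the test between the groups. Of the 84 members 81 had a mean level of at least 1 and were tested, with all 14159 such genes, by limma on log2(value + 1). At a Benjamini-Hochberg adjusted p of 0.05 limma called 0 of the 81 members, as it called 0 of all genes tested (0.0%), and the lowest adjusted p of a member was 0.792. At an unadjusted p under 0.05 limma called 0 members, against 930 of all genes (6.57%). On the recovered reads, edgeR's quasi-likelihood test called 0 members, against 0.0% of all genes after adjustment, and 0 members at an unadjusted p under 0.05, against 6.93% of genes. DESeq2 called 0 members in both ways, against 0.0752% of genes after adjustment and 6.13% unadjusted.

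The fitted differences were small and lay on both sides of 0. The median log2 fold change (Tsc1-null EV over WT EV) was −0.03 over the members, −0.02 over the large subunit, −0.05 over the small subunit and −0.02 over all genes tested. Of the 81 members 31 lay above 0 and 50 below, but without WT EV library 2 the split was 53 above and 28 below, and without Tsc1-null EV library 1 it was 52 above and 29 below. Without both of these libraries 65 members lay above 0 and 16 below, with a median of 0.11, and no member was called. The difference was within ±0.25 for 77 of 81 members (95.1%), and for 9244 of all genes (65.3%). The limma 95% interval of the difference included 0 for all 81 members and lay within ±1 for 78, and the median distance from the estimate to either bound was 0.41. That distance describes a single unadjusted comparison and is not a detection limit. After adjustment over all genes, a call for a typical member in these 6 libraries would need a larger difference.

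**Figure D3:**
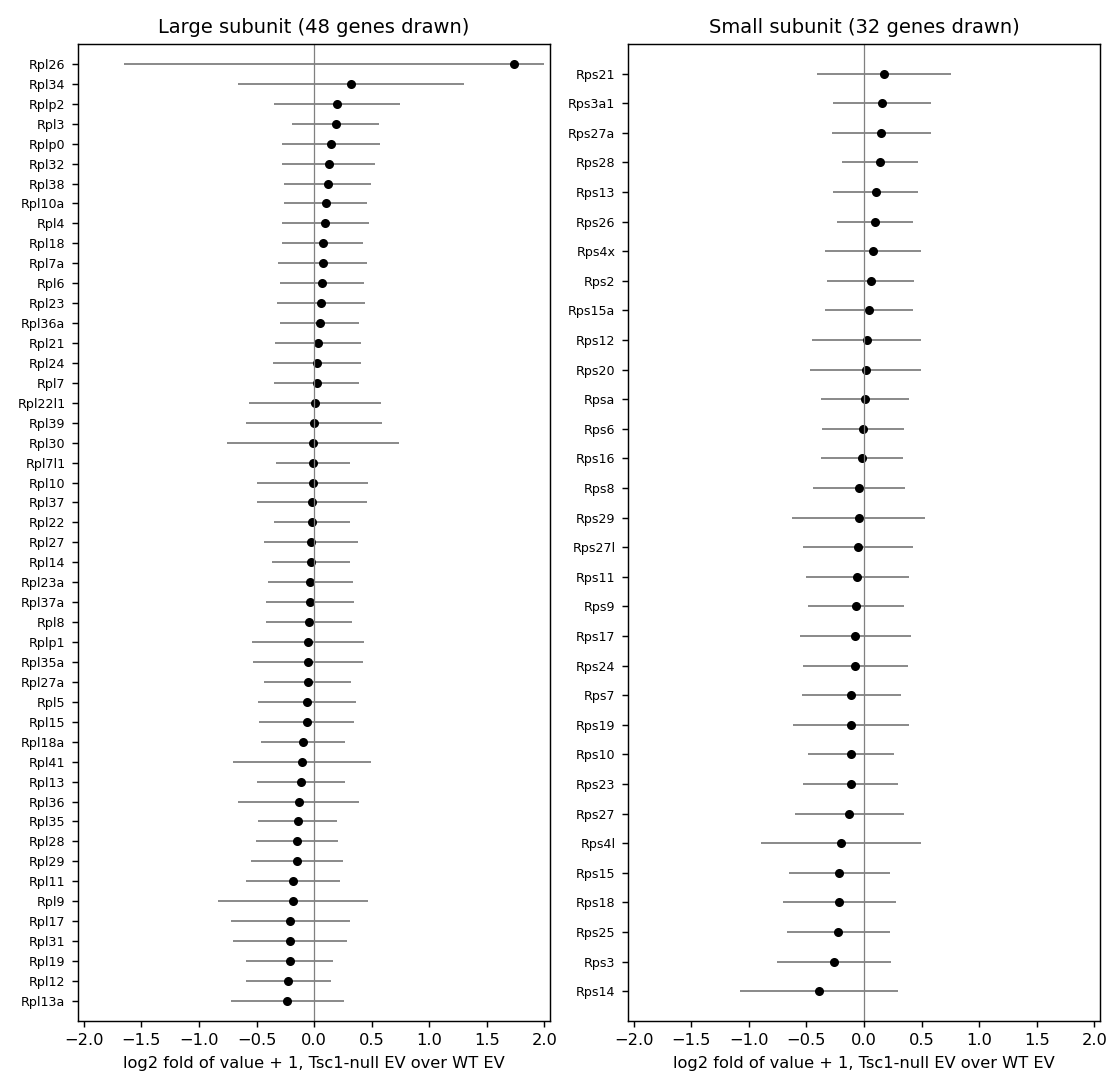
Log2 fold change (Tsc1-null EV over WT EV) of each tested member with its limma 95% interval, large and small subunit members side by side (axis cut at ±2, so the interval of Rpl26 runs past it). Every interval drawn includes 0, and 77 of 81 members lie within ±0.25; 1 small subunit member is not drawn.

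Rpl12 and Rpl19 were the only tested members whose libraries did not overlap between the groups, both lower in Tsc1-null EV lungs. They are 2 of 81 tested members (2.47%), while 881 of all genes (6.22%) had such a pattern. No tested member had all Tsc1-null EV lungs above all WT EV lungs, against 971 of all genes (6.86%). Rpl12, at chr2:32961559-32965345, encodes a protein at the base of the large subunit stalk. Its level was 468, 483 and 483 in Tsc1-null EV lungs and 501, 647 and 538 in WT EV lungs. The Tsc1-null EV lungs lay close together at 478 ± 8.66, below WT EV lungs at 562 ± 75.8 (SD, n = 3 each). The log2 fold change was −0.22 ± 0.16 (SE) with a limma adjusted p of 0.792, and without WT EV library 2 it was −0.12. Rpl19, at chr11:98026710-98030492, encodes a protein that takes part in a bridge between the subunits. Its level was 566, 683 and 693 in Tsc1-null EV lungs and 716, 769 and 753 in WT EV lungs. The mean was 647 ± 70.4 in Tsc1-null EV lungs and 746 ± 27.3 in WT EV lungs (SD, n = 3 each), with a log2 fold change of −0.21 ± 0.17 (SE, limma adjusted p 0.808), and −0.12 without Tsc1-null EV library 1. Neither gene passed the test.

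The stalk, which draws the translation factors that hydrolyse GTP to the large subunit, is built on Rplp0 with pairs of Rplp1 and Rplp2. Rplp0 had a level of 710.1, 979 and 885 in Tsc1-null EV lungs and of 718, 821 and 769 in WT EV lungs. Its log2 fold change of 0.15 ± 0.19 (SE) was 0.046 without Tsc1-null EV library 2 and 0.28 without Tsc1-null EV library 1. Its lowest and its highest value were both in Tsc1-null EV lungs. Rplp1 had 654, 752 and 755 in Tsc1-null EV lungs and 582, 950.4 and 748 in WT EV lungs. Rplp2 had 616, 464 and 391 in Tsc1-null EV lungs and 343, 560.0 and 387 in WT EV lungs. Its log2 fold change of 0.20 ± 0.24 (SE) was 0.019 without Tsc1-null EV library 1, 0.050 without WT EV library 1 and 0.40 without WT EV library 2. For Rplp2 the 2 libraries that stood apart in the series were the highest of their groups.

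Rpl5 and Rpl11 carry the 5S ribosomal RNA into the large subunit, and when free they bind and inhibit Mdm2, the ligase that degrades p53. Rpl5 had a level of 624, 772 and 694 in Tsc1-null EV lungs and of 679, 864 and 646 in WT EV lungs. Rpl11 had 343, 419 and 406 in Tsc1-null EV lungs and 367, 509 and 457 in WT EV lungs. Both overlapped between the groups, and both were highest in WT EV library 2. Rpl4, Rpl17 and Rpl39 line the tunnel through which the new chain leaves. Rpl4 had 763, 884 and 863 in Tsc1-null EV lungs and 831, 749 and 767 in WT EV lungs. Rpl17 had 946, 874 and 695 in Tsc1-null EV lungs and 839.8, 1251 and 839 in WT EV lungs. Rpl39 had 168, 239.8 and 243 in Tsc1-null EV lungs and 150.4, 295 and 221 in WT EV lungs. Among the 3, WT EV library 2 was the highest for Rpl17 and Rpl39 and the lowest for Rpl4.

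Rpl3 reaches with one arm toward the peptidyl transferase centre, where peptide bonds form. Its level was 570.3, 661 and 610.4 in Tsc1-null EV lungs and 518, 614 and 491 in WT EV lungs, so that 1 Tsc1-null EV lung lay above all WT EV lungs and the other 2 lay below the highest of them. The log2 fold change was 0.19 ± 0.17 (SE) with a limma adjusted p of 0.832, and it was 0.12 without WT EV library 3 and 0.28 without WT EV library 2. With each library weighted by its spread (limma's array weights), Rpl3 had the lowest adjusted p of any member under that fit, 0.0570, at a log2 fold change of 0.36. That fit called 1050 of all genes (7.42%) and 0 members, and at an unadjusted p under 0.05 it held 9 of 81 members (11.1%) against 27.9% of genes. It gave weights of 3.953 to Tsc1-null EV library 2 and 4.185 to WT EV library 3, against 0.2127 to 0.9325 for the rest. Its values thus rest mostly on 1 lung of each group.

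In the small subunit, Rps23 and Rps15 lie at the decoding centre, and Rps2 and Rps3 at the entry of the messenger RNA. Rps23 had a level of 712, 851 and 716 in Tsc1-null EV lungs and of 771, 949 and 756 in WT EV lungs. Rps15 had 868, 844 and 761 in Tsc1-null EV lungs and 892, 1165 and 839 in WT EV lungs. Rps2 had 779.8, 885 and 919 in Tsc1-null EV lungs and 859.9, 805 and 809.9 in WT EV lungs. For Rps23 and Rps15 the highest library was WT EV library 2, as for 41 members in all, while for Rps2 that library was the lowest of its group. Rps3 had 544, 682 and 658 in Tsc1-null EV lungs and 647, 992 and 654 in WT EV lungs (log2 fold change −0.26 ± 0.22, SE, and 0.043 without the 2 libraries that stood apart).

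Rps6, the subunit that the S6 kinases phosphorylate when mTORC1 is active, was among the most even members. Its level was 795, 780.3 and 756 in Tsc1-null EV lungs and 786, 793 and 766 in WT EV lungs. The mean was 777 ± 20.0 in Tsc1-null EV lungs and 782 ± 14.3 in WT EV lungs (SD, n = 3 each), and the log2 fold change was −0.01 with a limma 95% interval from −0.36 to 0.35. These are levels of its RNA, and phosphorylation was not measured here. Rpsa, also known as the laminin receptor precursor, had 836, 876 and 909.6 in Tsc1-null EV lungs and 849, 959.8 and 801 in WT EV lungs. Rps27a, made as a fusion with ubiquitin, had 592, 669.6 and 517 in Tsc1-null EV lungs and 458, 631 and 517 in WT EV lungs. Its log2 fold change of 0.15 ± 0.19 (SE) was 0.046 without WT EV library 1, 0.060 without Tsc1-null EV library 2 and 0.28 without WT EV library 2. Fau, a fusion with a ubiquitin-like protein, lies outside the symbol rule, and it had 657, 651 and 546 in Tsc1-null EV lungs and 549.97, 743 and 577 in WT EV lungs.

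Several members had their widest spread through WT EV library 2. Rps14, whose human counterpart lies in the region lost in the 5q− syndrome, had a level of 512, 556 and 497 in Tsc1-null EV lungs and of 475, 1144 and 584 in WT EV lungs. In WT EV library 2 it stood at 2.16 times the mean of the other WT EV lungs. Its log2 fold change, −0.39 ± 0.30 (SE, limma adjusted p 0.806), was the lowest of all members, and without WT EV library 2 it was −0.015. Rpl9 had 617, 789.8 and 649 in Tsc1-null EV lungs and 556, 1218 and 685 in WT EV lungs, with library 2 at 1.96 times the other WT EV lungs. Its log2 fold change was −0.18 ± 0.29 (SE) with all libraries and 0.14 without that library. Rps21 had 446, 468 and 387 in Tsc1-null EV lungs and 285, 575 and 343 in WT EV lungs, a ratio of 1.83 for library 2. Its log2 fold change of 0.17 ± 0.25 (SE) was the highest of the small subunit, and without WT EV library 1 it was −0.038. Rpl13a, in human cells a part of a complex that silences translation, had 907, 1011 and 868 in Tsc1-null EV lungs and 932, 1425 and 974 in WT EV lungs. The log2 fold change of Rpl13a was −0.23 ± 0.22 (SE), and −0.040 without WT EV library 2.

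Rps3a1, at the exit of the messenger RNA, and Rps28 lay above 0 with a narrower spread. Rps3a1 had 1364, 1445 and 1163 in Tsc1-null EV lungs and 1217, 1247 and 1090.0 in WT EV lungs (log2 fold change 0.16 ± 0.19, SE). Rps28, a neighbour in the same region, had 222, 259 and 249.995 in Tsc1-null EV lungs and 219.9, 240.0 and 204 in WT EV lungs (log2 fold change 0.14 ± 0.15, SE). For both, the highest library was Tsc1-null EV library 2 and the lowest WT EV library 3, and the groups overlapped. With 1 or both of the libraries that stood apart or any other single library left out, the log2 fold change ranged from 0.090 to 0.25 for Rps3a1 and from 0.081 to 0.27 for Rps28. Beside Rpl26 and the 15 tested members described with a fold change, 65 members were tested. Rps15a, whose fold change is given only beside its processed copies, is among these 65. With all libraries 22 of the 65 lay above 0 and 43 below. Their log2 fold changes lay between −0.22 and 0.12, and their lowest limma adjusted p was 0.828. Their mean levels ran from 12.5 for Rpl30 to 1083 for Rpl10.

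Genes whose human counterparts are mutated in Diamond-Blackfan anaemia, a failure of red cell formation, form a list of 14 members. With all libraries 3 of these 14 genes lay above 0 and 11 below, with a median log2 fold change of −0.06. Of the 81 members 31 lay above 0 and 50 below, with a median of −0.03. In the list, 0 passed the limma test. Among the 3 above 0 was Rpl26, which was listed at 0 in 3 libraries. Summed with its copy Gm15772, it had a log2 difference of −0.13. Rps19, the gene most often affected, had a level of 434, 495 and 511 in Tsc1-null EV lungs and of 386, 681 and 526 in WT EV lungs. Rps26 was more even, with 309, 331 and 329 in Tsc1-null EV lungs and 334, 286 and 286 in WT EV lungs. Rps19 was highest in WT EV library 2. Rps26 was lowest in WT EV libraries 2 and 3, which were nearly equal.

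Per kilobase of coding sequence, most members had levels of the same order. The mean level over the 6 libraries was 500 to 2000 per coding kb for 65 members, with a median of 943 for the large and 1139 for the small subunit. Rpl41, the shortest member with 75 coding bases, stood highest at 11519 per coding kb, a length that leaves out its untranslated ends. Rps24 at 2708, Rps29 at 2561 and Rps27 at 2305 led the small subunit, and Rplp1 at 2164 and Rpl37a at 2117 followed Rpl41 in the large subunit. Among tested members, the lowest in the large subunit were Rpl26 at 30.5, Rpl30 at 36.3 and Rpl7l1 at 100.1 per coding kb. In the small subunit Rps27l was lowest at 281, before Rps13 at 602 and Rps15a at 840.5. Rps4l has no coding length in the annotation, where it is a transcribed processed pseudogene, and has no place in this order.

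Paralogs of several members are known from other tissues, and in lung the common form had the higher level per coding kb in the 3 pairs compared that way. Rpl22l1, a paralog that can stand in for Rpl22, had a level of 69.8, 101.2 and 74.5 in Tsc1-null EV lungs and of 56.6, 109.8 and 82.9 in WT EV lungs. Rpl22 had 280.3, 317 and 274 in Tsc1-null EV lungs and 279.6, 317 and 287 in WT EV lungs, which over all lungs is 762 per coding kb, against 225 for Rpl22l1. Rps27l, a target of p53, had 59.1, 83.2 and 65.8 in Tsc1-null EV lungs and 54.4, 86.7 and 76.3 in WT EV lungs. Rps27 had 468, 624 and 566 in Tsc1-null EV lungs and 490.4, 750.2 and 587 in WT EV lungs, or 2305 per coding kb over all lungs against 281 for Rps27l. Both members of each of these pairs overlapped between the groups.

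Rpl7l1 had a level of 64.95, 80.0 and 76.3 in Tsc1-null EV lungs and 76.8, 70.7 and 74.5 in WT EV lungs, at 100.1 per coding kb against 1096 for Rpl7. Rps4l had 15.6, 35.0 and 23.8 in Tsc1-null EV lungs and 28.8, 35.0 and 19.9 in WT EV lungs, while Rps4x had 594, 777 and 829 in Tsc1-null EV lungs and 659.99, 721 and 684 in WT EV lungs. The other 3 members were under the filter and were not tested. Rpl10l, known from the male germ line, was listed at 0 in all 6 libraries. Rpl3l, known from heart and skeletal muscle, had 0, 0.431 and 0.331 in Tsc1-null EV lungs and 0.976, 0.441 and 0.864 in WT EV lungs. Rpl39l, also known from the male germ line, had 0.200, 0.108 and 0 in Tsc1-null EV lungs and 0.244, 0.441 and 0.123 in WT EV lungs.

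The copies printed above hold most of the level of their pairs in this table. Rpl26 was listed at 10.6, 0 and 53.1 in Tsc1-null EV lungs and at 0, 0 and 15.9 in WT EV lungs. Gm15772 had 465, 586 and 554 in Tsc1-null EV lungs and 569, 648 and 588 in WT EV lungs, so that 2.28% of the pair's level stood on Rpl26. Added up, the pair had 476, 586 and 607 in Tsc1-null EV lungs and 569, 648 and 604 in WT EV lungs, a log2 difference of −0.13 in the mean. Since Rpl26 was listed at 0 in 3 libraries, no fold change is given for it alone.

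For Rpl30 the levels were 9.02, 18.8 and 9.94 in Tsc1-null EV lungs and 8.05, 16.8 and 12.7 in WT EV lungs. Gm12191 had 227, 268 and 284 in Tsc1-null EV lungs and 252, 271 and 252 in WT EV lungs, and 4.62% of the pair stood on Rpl30. Rpl34 had 48.7, 51.4 and 85.8 in Tsc1-null EV lungs and 23.3, 87.3 and 53.2 in WT EV lungs, and Rpl34-ps1 had 179.6, 248 and 164 in Tsc1-null EV lungs and 202, 297 and 217 in WT EV lungs. On Rpl34 stood 21.1% of that pair. Its own log2 fold change was 0.32 ± 0.43 (SE), or −0.18 without WT EV library 1, and that of the summed pair was −0.15. Of all 50-base stretches of the member's message, 60.6% for Rpl26, 47.8% for Rpl30 and 50.6% for Rpl34 occur in that copy, and how the counting placed reads from them was not tested. Rps27 shares 98.6% of its stretches with Rps27rt, and there Rps27rt was listed at 0 in all 6 libraries.

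**Figure D4:**
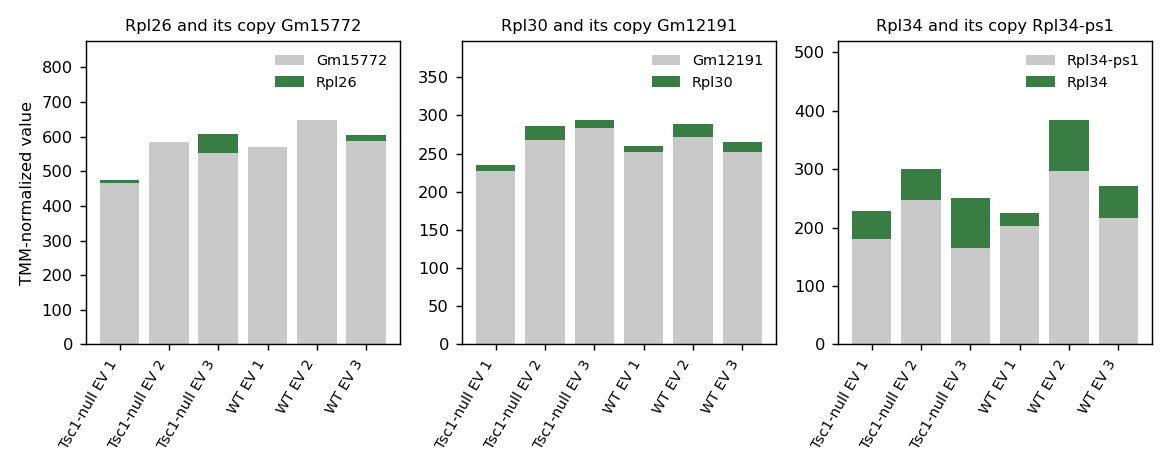
Stacked bars of the authors' normalized values of Rpl26, Rpl30 and Rpl34 (green) on top of their processed copies (grey) in each library, with Tsc1-null EV lungs left of WT EV lungs. The copies hold most of each bar, and on average 21.1% or less of a pair stands on the annotated member.

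Sequence shared with other genes was common among members. Each message was cut into all its 50-base words, and a word was counted as shared where it also occurs, on either strand, in a transcript of another GENCODE M21 gene. The median share was 53.6% over the 81 tested members and 0% over the 13472 tested genes that could be matched. More than 50% of words were shared in 47 of the 81 members (58.0%), against 635 of the 13472 genes (4.71%). The median was 58.7% for the 48 large and 50.7% for the 33 small subunit members. Rps27 at 98.6%, Rpl35 at 95.1% and Rpl5 at 93.8% were highest, while Rps3 shared 2.96%. In all, 1888 other genes share a word with a member, 1083 of them pseudogenes, and 552 of the genes but 10 of the pseudogenes have a row in the deposited table. Reads of these members and of their copies may therefore be mixed, and levels of single members with high shares are uncertain to that extent. Rps3 and Rpl22, at 5.19%, are among the members with the lowest shares. The annotated transcript of Rps3 has 1908 bases with 729 coding bases, and that of Rpl22 has 2051 with 384. Rps15a had a share of 6.37% over an annotated transcript of 5179 bases with 390 coding bases. The shares of Rps3, Rpl22 and Rps15a may therefore understate what their coding parts share.

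**Figure D5:**
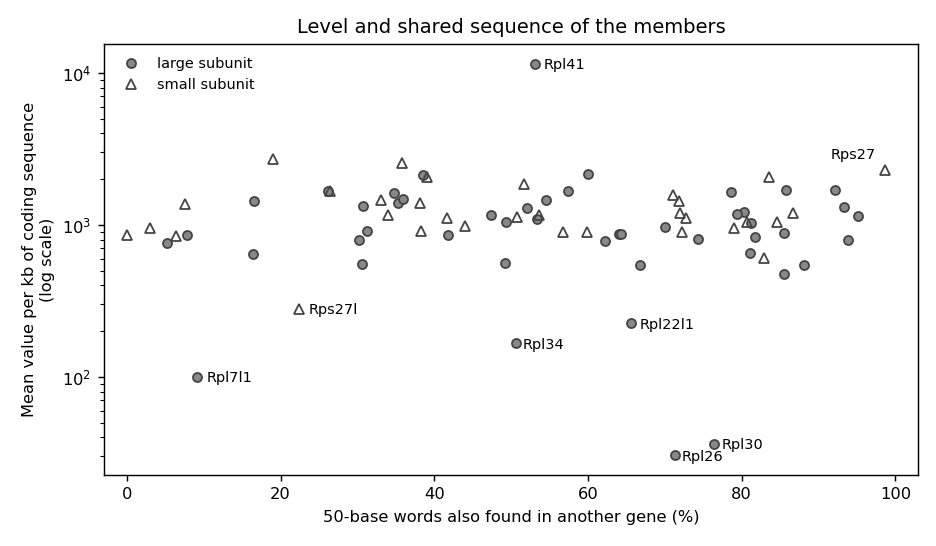
Share of a member's 50-base words found in another gene's transcript (percent, horizontal) against its mean level per coding kilobase (log axis, vertical), by subunit. Rpl26, Rpl30 and Rpl34 lie far below members with similar shares, and Rps4l is left out because it has no coding length.

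Genes that build or drive the ribosome were read in the same fit with all 6 libraries. Of all genes in that fit, 6698 lay above 0 and 7461 below. The splits of the lists below were not computed with libraries left out. Of 45 tested ribosome biogenesis genes 30 lay above 0 and 15 below, with a median log2 fold change of 0.13, and 0 passed. Rrp12, which takes part in export of the subunits, had a level of 18.04, 11.9 and 11.8 in Tsc1-null EV lungs and of 10.6, 10.4 and 8.88 in WT EV lungs (log2 fold change 0.42 ± 0.21, SE, limma adjusted p 0.721). Its groups did not overlap, with the highest value in Tsc1-null EV library 1. Pes1, Rrs1, Nop14, Ltv1 and Nob1 of this list also had all Tsc1-null EV lungs above all WT EV lungs. A pattern of this kind, higher in Tsc1-null EV lungs, was seen in 6.86% of all genes tested. Sbds helps to release Eif6 from the large subunit. Its level was 137, 131 and 133 in Tsc1-null EV lungs and 158, 143 and 165 in WT EV lungs. The log2 fold change of Sbds was −0.21 ± 0.13 (SE). In this list only Sbds was lower in all Tsc1-null EV lungs, as 6.22% of all genes tested were. Ncl, the nucleolar protein nucleolin and the highest of the list, had 699, 426 and 435 in Tsc1-null EV lungs and 441, 441 and 428 in WT EV lungs, so only Tsc1-null EV library 1 stood out.

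Of 21 tested translation factors and other messages with a TOP tract 15 lay above 0 and 6 below, with a median log2 fold change of 0.07, and 0 passed. Eef1a1, which brings aminoacyl-tRNA to the ribosome, had a level of 5376, 6011 and 5914 in Tsc1-null EV lungs and of 5551, 5174 and 4767 in WT EV lungs (log2 fold change 0.16 ± 0.27, SE). Its groups overlapped. Of 77 mitochondrial ribosomal proteins, which form the separate ribosome of that organelle, 36 lay above 0 and 41 below with a median of −0.00478, and 0 passed, with 1 at an unadjusted p under 0.05 (Mrps17, log2 fold change 0.47 ± 0.19, SE), against 6.57% of all genes.

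Of 14 genes that control ribosomal protein messages 4 lay above 0 and 10 below, with a median log2 fold change of −0.19, and 0 passed. Max, the partner of Myc, had a level of 99.4, 88.0 and 91.2 in Tsc1-null EV lungs and of 114, 106 and 114 in WT EV lungs (log2 fold change −0.26 ± 0.13, SE, limma adjusted p 0.721). Myc, a transcription factor that drives ribosome production, had 12.6, 10.1 and 10.2 in Tsc1-null EV lungs and 9.88, 6.76 and 8.76 in WT EV lungs (log2 fold change 0.35 ± 0.21, SE, limma adjusted p 0.746). Both pairs of groups did not overlap, in opposite directions. Of all genes tested, 6.22% lay lower in all Tsc1-null EV lungs as Max did, and 6.86% higher as Myc did. Larp1, which binds the TOP tract, had 229.7, 156 and 172 in Tsc1-null EV lungs and 178, 171 and 183 in WT EV lungs, and its groups overlapped.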

How the data were processed

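Per the labels' protocols, paired-end Illumina reads were made from lung RNA of 6 mice. The deposited values are a TMM-normalized signal per gene in 1 table. The submitters' processing notes name Bowtie2 2.1.0, RSEM 1.2.15, edgeR and mm10 and no role for any of them. Annotation, filters and strand use: not given in the sources used here. All values (100%) were whole multiples of a step per column within 0.001 reads, so reads were recovered for count tests. Libraries of a group differed beyond counting noise (chi-square per degree of freedom 9.21 to 58.55). The labels number each library as a sample and say nothing of separate days, and p-values measure the spread between these samples.

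Members and lists were chosen with earlier results of these data known. The 14159 genes with a mean of at least 1 were fitted on log2(value + 1) in limma 3.58.1 (R 4.3.3) with an intensity trend, two-sided, with Benjamini-Hochberg adjustment at 0.05. Fold changes on this scale understate those of low genes. Differences of summed pairs are differences of mean log2(value + 1), with no test. Other settings were pseudocounts (0.5, 0.1), the filter (none, or a mean of 5), scaling to a common median or by quantiles, limma without trend, with robust shrinkage or with array weights, edgeR 4.0.16, DESeq2 1.42.0, each library left out, and both libraries that stood apart left out. Sums and ratios were also taken without members that share over 50% of their words. The fit was tested on simulated data.

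Members were named by role, paralogs, a lack of overlap between the groups, the 3 highest and lowest levels per length of each subunit, and shared sequence. Of the other lists, those with the smallest unadjusted p and the highest level could be named. Rps14, Rpl9, Rps21, Rpl13a, Rps3a1, Myc, Hba-a1 and the genes shown with their start sites were picked after values were seen. Pes1, Rrs1, Nop14, Ltv1 and Nob1 were likewise named after values were seen, for a lack of overlap between the groups. Coding length replaced the transcript length planned for levels between genes, since some annotated transcripts are very long. Shared words were read from 1 principal transcript per member (GENCODE release 21) against all transcripts of other genes. Further, 1 small subunit member and 1 related gene enter the counts and are not reported singly here.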

Additional observations from a re-analysis of the deposited data

How the results depend on the processing

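No member was called under any of the 18 alternatives. The median log2 fold change of the members, −0.03 with all libraries, was 0.10 with array weights and 0.11 without both libraries that stood apart, and ranged from −0.10 to 0.11 over the fits that left libraries out. For the small subunit it was 0.11 with array weights and 0.13 without both, with a range of −0.13 to 0.13. The fit with array weights rests mostly on Tsc1-null EV library 2 and WT EV library 3. The difference in the summed level (Tsc1-null EV minus WT EV), −1465 with all libraries, was 2842 without both and ranged from −3403 to 2842. The difference in the ratio of the subunits, 0.00608, was 0.0574 without members that share over 50% of their words, and ranged from −0.027 to 0.024 over the fits that left libraries out. Alternatives were computed singly for the 15 members described with a fold change, not for the others, Rps15a included. Among these 15 the sign turned for Rpl9 (0.14 with array weights, 0.21 without both libraries, range −0.42 to 0.21). It also turned for Rps3 (0.043 without both, range −0.36 to 0.043) and Rps6 (0.011 with array weights, range −0.025 to 0.012). The sign of Rps21 (range −0.038 to 0.47) and of Rpl34 (range −0.18 to 0.90) turned as well. The cause was not tested. Rpl12 ranged from −0.30 to −0.10 and Rpl19 from −0.26 to −0.09. No paired analysis was possible because the labels give no replicate numbers that the groups share. Depth of 202856 to 428475 member reads leaves the counting error of the member sum small beside the spread between mice. For single low members such as Rpl26 and Rpl30, counting error was not computed.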

Other observations

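Of 7 processed copies with a row of their own and a "-ps" symbol, 3 low ones had all Tsc1-null EV lungs above all WT EV lungs, against 6.86% of all genes tested, and they were singled out after their values were seen. Rps15a-ps6 had a level of 6.41, 5.61 and 5.63 in Tsc1-null EV lungs and of 2.07, 1.32 and 2.96 in WT EV lungs (log2 fold change 1.17 ± 0.26, SE, limma adjusted p 0.721). Rps15a-ps4 had 5.81, 4.74 and 6.19 in Tsc1-null EV lungs and 1.83, 2.35 and 3.82 in WT EV lungs (0.87 ± 0.26, SE). Rplp2-ps1 had 4.21, 4.74 and 4.53 in Tsc1-null EV lungs and 2.56, 2.06 and 1.48 in WT EV lungs (0.87 ± 0.24, SE). None of the 3 passed the test, and the parent genes had log2 fold changes of 0.05 for Rps15a and 0.20 for Rplp2. The markers of dividing cells, Mki67 and Top2a, summed to 60.5, 62.6 and 65.6 in Tsc1-null EV lungs and to 63.4, 11.6 and 29.5 in WT EV lungs, and were lowest in the library with the highest ribosomal protein sum.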
